A study of Mus musculus with 16 samples.

Results

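The creatine kinase and adenylate kinase shuttle of the mouse heart was followed through 7 genes: the muscle-type cytosolic creatine kinase Ckm, the sarcomeric mitochondrial creatine kinase Ckmt2, the brain-type creatine kinase Ckb, the creatine transporter Slc6a8 and the adenylate kinases Ak1, Ak3 and Ak4. They were taken by symbol from a gene count matrix of 55573 genes, and all 7 passed the expression filter that left 16857 genes for testing. The matrix came from the apex of 16 hearts of male mice, 4 mice in each of 4 groups. Every mouse carried an AAV9 virus whose cTNT promoter drives expression in cardiomyocytes, either AAV9-cTNT-CARDINAL, which carries the mouse long noncoding RNA Cardinal, or the control AAV9-cTNT-GFP. Hearts were collected 4 weeks after transverse aortic constriction (TAC), a surgical pressure overload of the left ventricle, or after a sham operation. Groups are called GFP sham, GFP TAC, Cardinal sham and Cardinal TAC, and mice by the number in their label; strain and age at harvest were not given in the sources used here. The labels number separate mice, so the p-values describe the spread between mice of one experiment. The questions were which of the genes changed under pressure overload with the control virus, whether they did so with Cardinal, and how muscle and brain-type isoforms compared.

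Heart muscle keeps a store of phosphocreatine that buffers and carries the energy of ATP. Slc6a8 brings creatine into the cell, mitochondrial creatine kinase charges it at the site of ATP production, and cytosolic creatine kinase regenerates ATP beside myofibrils and ion pumps. Adenylate kinases run alongside: they interconvert adenine nucleotides, with Ak1 in the cytosol and Ak3 and Ak4 in the mitochondrial matrix, Ak3 preferring GTP as the phosphate donor. Adult heart and skeletal muscle are known for the M-type creatine kinase subunit, while the B-type subunit predominates in brain and in the fetal heart, and B-type enzyme is also made by many cells other than muscle.

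On GRCm38 with the GENCODE M21 annotation the 7 genes lie on 7 chromosomes. Ckm (ENSMUSG00000030399) is at chr7:19404776-19422841 on the plus strand, Ckmt2 (ENSMUSG00000021622) at chr13:91853387-91876885 on the minus strand and Ckb (ENSMUSG00000001270) at chr12:111669361-111672338 on the minus strand. Slc6a8 (ENSMUSG00000019558) is at chrX:73673150-73682502 on the plus strand. Ak1 (ENSMUSG00000026817) is at chr2:32621758-32635058 on the plus strand, Ak3 (ENSMUSG00000024782) at chr19:29020833-29047961 on the minus strand and Ak4 (ENSMUSG00000028527) at chr4:101419277-101466995 on the plus strand.

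The proximal promoters of the 3 creatine kinases are shown because the muscle and brain-type genes are what is compared. Each line holds the 100 bases before the RefSeq start site (GRCm38.p6), 5′ to 3′ on the strand of the gene. The windows are chr7:19410994-19411093 for Ckm, chr13:91876886-91876985 for Ckmt2 and chr12:111672339-111672438 for Ckb. The Ckm window lies inside the annotated span of the gene, which starts farther upstream. Capitals mark the motifs searched on both strands: the TATA box TATAA, the CCAAT box CCAAT, the GC box GGGCGG and the core of the M-CAT element, CATTCC.
Ckm: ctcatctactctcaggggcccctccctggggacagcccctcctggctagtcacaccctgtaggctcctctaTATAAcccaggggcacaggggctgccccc
Ckmt2: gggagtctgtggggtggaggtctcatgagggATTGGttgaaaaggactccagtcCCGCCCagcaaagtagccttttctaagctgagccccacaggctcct
Ckb: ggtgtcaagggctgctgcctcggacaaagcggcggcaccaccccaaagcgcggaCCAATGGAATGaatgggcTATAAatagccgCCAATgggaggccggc
Both cytosolic isoforms held a TATA box at nearly the same place, 29 bases before the start of Ckm and 28 bases before that of Ckb, whereas the Ckmt2 window held none. Ckb also held a CCAAT box 46 and again 16 bases before its start, and an M-CAT core read on the opposite strand at 41 bases, directly beside the first CCAAT box and not overlapping it. Ckmt2 held a CCAAT box 69 and a GC box 46 bases before its start, both on the opposite strand. Of 32851 such windows in the RefSeq table, 10.2% held TATAA, 18.9% CCAAT, 24.7% GGGCGG and 4.71% CATTCC. The GC content was 65% for Ckm, 57% for Ckmt2 and 62% for Ckb against a median of 55%. These matches describe letters, not bound sites. Windows were listed for 6 of the 7 genes, the exception being Slc6a8.

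Libraries held 16441997 to 21904589 counts in genes (median 21723766), of which 30.3% to 34.0% were mitochondrially encoded; 3 counts, the floor used for detection, corresponded to 0.126 to 0.195 CPM (counts scaled to a common library size, with TMM factors). All levels are in CPM, and the 7 genes were far above that floor, with the lowest counts for Ckb (233 to 567 per mouse). Cardinal RNA (listed as Gm12295) averaged 4.77 ± 1.03 CPM in GFP sham and 4.88 ± 1.66 CPM in GFP TAC (SD, n = 4), and 26.2 to 40.0 CPM in the Cardinal sham mice. In Cardinal TAC it was 93.9 CPM in mouse 1 but 18.3, 19.5 and 20.6 CPM in the others, all above the 3.42 to 7.24 CPM of the 8 GFP mice. Of the 7 cardiomyocyte markers, 6 fell in GFP TAC, while Actn2 had a higher mean (1479 against 1287 CPM) and did not pass. All 7 summed to 27600 to 33311 CPM against 38734 to 39381 CPM in GFP sham, with Myh6 the largest part. Of the 7 fibroblast markers 4 rose, and all 7 summed to 859 to 1109 against 493 to 554 CPM. The corresponding sums in Cardinal TAC were 33587 to 37354 CPM and 500 to 931 CPM, with mouse 1 at the end nearer GFP TAC in both. With Cardinal, Actn2 rose and Pln fell under TAC, and the other 5 cardiomyocyte markers did not pass. Of the 7 fibroblast markers 1 rose there, where 6.48% of all genes passed. Skeletal muscle markers summed to at most 0.919 CPM, with Myh1, Myh2, Myh4, Actn3 and Pvalb at 0 counts in every library, and neuronal Snap25 was also at 0. The Schwann cell and neuron markers summed to 5.81 to 7.09 CPM in GFP sham and 3.94 to 5.74 CPM in GFP TAC, with 2 of 4 tested lower. In the same comparison 1 of 5 endothelial and 1 of 5 smooth muscle markers rose, near the share of all genes. Markers were called by the edgeR quasi-likelihood test at an adjusted p under 0.05, which 17.4% of all genes passed between GFP TAC and GFP sham.

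Per kilobase of exon, the shuttle was dominated by the muscle isoforms. In GFP sham hearts the length-scaled level was highest for Ckmt2 (908 CPM per kb), followed by Ckm (377), Ak1 (149), Ak3 (29.0), Slc6a8 (27.8), Ckb (5.71) and Ak4 (5.67). The ranges over mice were separate between Ckmt2, Ckm, Ak1 and the lower genes. They overlapped for the neighbours Ak3 (28.2 to 29.9 CPM per kb) and Slc6a8 (25.9 to 30.0), and for Ckb (5.38 to 6.10) and Ak4 (5.27 to 6.20). The lower order depended on the length used: per kb of the principal transcript alone, Slc6a8 (43.7) stood above Ak3 (32.2) and Ckb (11.2) above Ak4 (6.04). In GFP TAC hearts the length-scaled levels of Ckb (6.40 to 8.22 CPM per kb) and Ak4 (3.54 to 4.70) no longer overlapped. The ubiquitous mitochondrial isoform Ckmt1, the partner of Ckb in brain, had no counts in 15 mice and 8 counts in the remaining mouse, a Cardinal TAC heart.

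**Figure D1:**
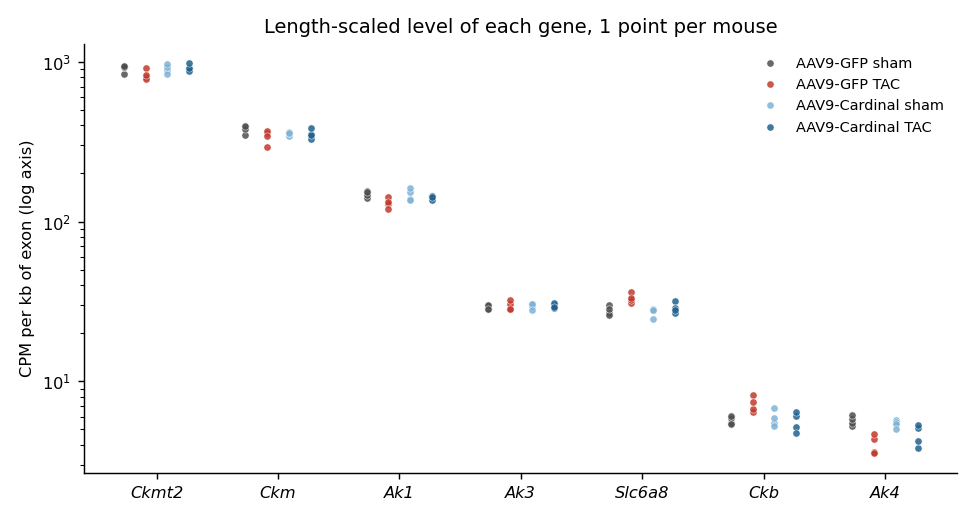
Length-scaled level of the 7 genes in CPM per kb of exon on a log axis, 1 point per mouse and 4 mice per group, with groups told apart by colour. Ckmt2, Ckm and Ak1 occupied the top, Ak3 and Slc6a8 the middle, and Ckb and Ak4 the bottom near 5.7 CPM per kb in GFP sham hearts.

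With the control virus, TAC moved 4 of the 7 genes: Ckb and Slc6a8 rose, Ak1 and Ak4 fell, and Ckm, Ckmt2 and Ak3 did not pass the test (edgeR quasi-likelihood test, adjusted p under 0.05). The background was high, as 17.4% of all genes tested passed in this comparison, 8.49% higher and 8.92% lower. DESeq2 also called 4 of the 7, where it called 17.2% of all genes given an adjusted p, and 6 had an unadjusted p under 0.05 against 29.9% of all genes. The median log2 fold change was -0.13 over the 7 genes and 0.0050 over all genes. GFP sham and GFP TAC mice did not overlap for 3 genes, Ckb, Slc6a8 and Ak4, where 20.3% of all genes did not overlap. Because these are whole-tissue libraries, fewer cells of a type and less RNA per cell cannot be told apart, and the shifts in marker sums described above went along with every result of this comparison; their part in it was not tested.

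Ckb, the brain-type isoform, was at 15.8, 17.0, 15.6 and 17.6 CPM in GFP sham mice 1 to 4 and at 18.5, 23.8, 19.5 and 21.4 CPM in GFP TAC mice 1, 3, 4 and 7. Every TAC mouse lay above every sham mouse, with mouse 3 the highest. The rise was 1.26-fold, a log2 fold change of 0.33 (SE 0.11, 95% interval 0.10 to 0.56, edgeR adjusted p = 0.045; exact two-sided permutation p = 0.029, the smallest that 4 mice against 4 allow). The call was near its threshold: in 9 of 16 fits that each left out 1 mouse the edgeR adjusted p was 0.0519 to 0.146, namely without any of the 4 GFP sham mice, GFP TAC mouse 3 or 7, Cardinal sham mouse 2 or 3, or Cardinal TAC mouse 4. Without GFP TAC mouse 3 the log2 fold change was 0.26. That mouse also had the lowest cardiomyocyte marker sum (27600 CPM) and the highest fibroblast marker sum (1109 CPM) of all mice. With no expression filter the edgeR adjusted p for Ckb was 0.0881. With the mouse number as a block in the fit it was 0.14, but GFP TAC mouse 7, alone with its number, had no weight there. Of the 50-base stretches in its exons, 9.98% recur in the pseudogenes Ckb-ps1, Ckb-ps2 and Gm12892, each with a group mean of at most 1.81 CPM, so a small part of its reads may be divided among them.

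Ckm, which encodes the muscle subunit, had 1008, 1134, 1105 and 1149 CPM in GFP sham mice and 1037, 852, 1071 and 999 CPM in GFP TAC mice. Only TAC mice 3 and 7 lay below the sham mice, so the groups overlapped. The log2 fold change was -0.15 (SE 0.067, 95% interval -0.29 to -0.0074), with an edgeR adjusted p of 0.14 and an exact permutation p of 0.086. Ckmt2, the mitochondrial partner of Ckm in striated muscle, had 1240, 1388, 1374 and 1396 CPM in GFP sham mice and 1188, 1159, 1363 and 1229 CPM in GFP TAC mice. Here 3 of 4 TAC mice lay below all sham mice and mouse 4 lay among them. Its log2 fold change was -0.13 (SE 0.059, 95% interval -0.25 to -0.0024, edgeR adjusted p = 0.16; exact permutation p = 0.057), and without GFP TAC mouse 4 it was -0.18 with an edgeR adjusted p of 0.0489. The sign of both depended on scaling. With library totals alone, which moved the median of all genes by 0.16 in this comparison, Ckm was at 0.0081 and Ckmt2 at 0.031.

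Slc6a8, the creatine transporter of the plasma membrane, had 156, 140, 135 and 147 CPM in GFP sham mice and 162, 188, 168 and 174 CPM in GFP TAC mice. All TAC mice exceeded all sham mice, although TAC mouse 1 was close to sham mouse 1. The rise was 1.19-fold, a log2 fold change of 0.25 (SE 0.066, 95% interval 0.11 to 0.40, edgeR adjusted p = 0.015; exact permutation p = 0.029). It lost the call without GFP sham mouse 3 (edgeR adjusted p = 0.053) or GFP TAC mouse 3 (0.0541) and kept it in the other 14 fits without 1 mouse. With the mouse number as a block in the fit, where GFP TAC mouse 7 had no weight, the edgeR adjusted p for Slc6a8 was 0.087.

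Among the adenylate kinases the mitochondrial Ak4 showed the largest difference of the 7 genes in this comparison. It had 24.5, 25.3, 26.8 and 28.8 CPM in GFP sham mice and 20.1, 21.9, 16.7 and 16.4 CPM in GFP TAC mice. The groups were well apart, with the highest TAC mouse below the lowest sham mouse. Ak4 fell to 0.713 of its sham level, a log2 fold change of -0.49 (SE 0.11, 95% interval -0.72 to -0.26, edgeR adjusted p = 0.0062; exact permutation p = 0.029). It was called in all 16 fits without 1 mouse, with log2 fold changes of -0.57 to -0.42. It was also called under every other setting tried, at -0.50 to -0.33 with an adjusted p of at most 0.0425 (edgeR or DESeq2). Of the 50-base stretches in the exons of Ak4, 10.2% recur in its pseudogene Ak3l2-ps, which was at 1.25 to 1.81 CPM.

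Ak1, the main cytosolic adenylate kinase of muscle, had 365, 401, 382 and 397 CPM in GFP sham mice and 367, 334, 346 and 312 CPM in GFP TAC mice. Mice 3, 4 and 7 lay below all sham mice, and mouse 1 was level with the lowest of them. Ak1 fell to 0.880 of its sham level, a log2 fold change of -0.18 (SE 0.059, 95% interval -0.31 to -0.059, edgeR adjusted p = 0.043; exact permutation p = 0.057). This call too was near its threshold and was lost in 10 of 16 fits (edgeR adjusted p = 0.0501 to 0.143), those without GFP sham mouse 2, 3 or 4, GFP TAC mouse 3, 4 or 7, Cardinal sham mouse 2, or Cardinal TAC mouse 1, 4 or 6. With library totals alone the log2 fold change was -0.024 (edgeR adjusted p = 0.78), and in a fit of only these 8 mice the adjusted p was 0.0645. With the mouse number as a block, where GFP TAC mouse 7 had no weight, the edgeR adjusted p for Ak1 was 0.21. Ak3, the GTP-using matrix enzyme, had 89.0, 92.1, 93.2 and 88.0 CPM in GFP sham mice and 88.1, 95.4, 100.1 and 88.0 CPM in GFP TAC mice. The ranges lay almost on top of each other, and the log2 fold change was 0.037 (SE 0.049, 95% interval -0.068 to 0.14, edgeR adjusted p = 0.68). Ak3 was called with library totals alone (0.20, edgeR adjusted p = 0.0158). It overlaps Cdc37l1 (105 to 128 CPM) and 1700018L02Rik on the other strand, which share 20.1% of its 50-base stretches, and strand use in counting was not given in the sources used here.

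**Figure D2:**
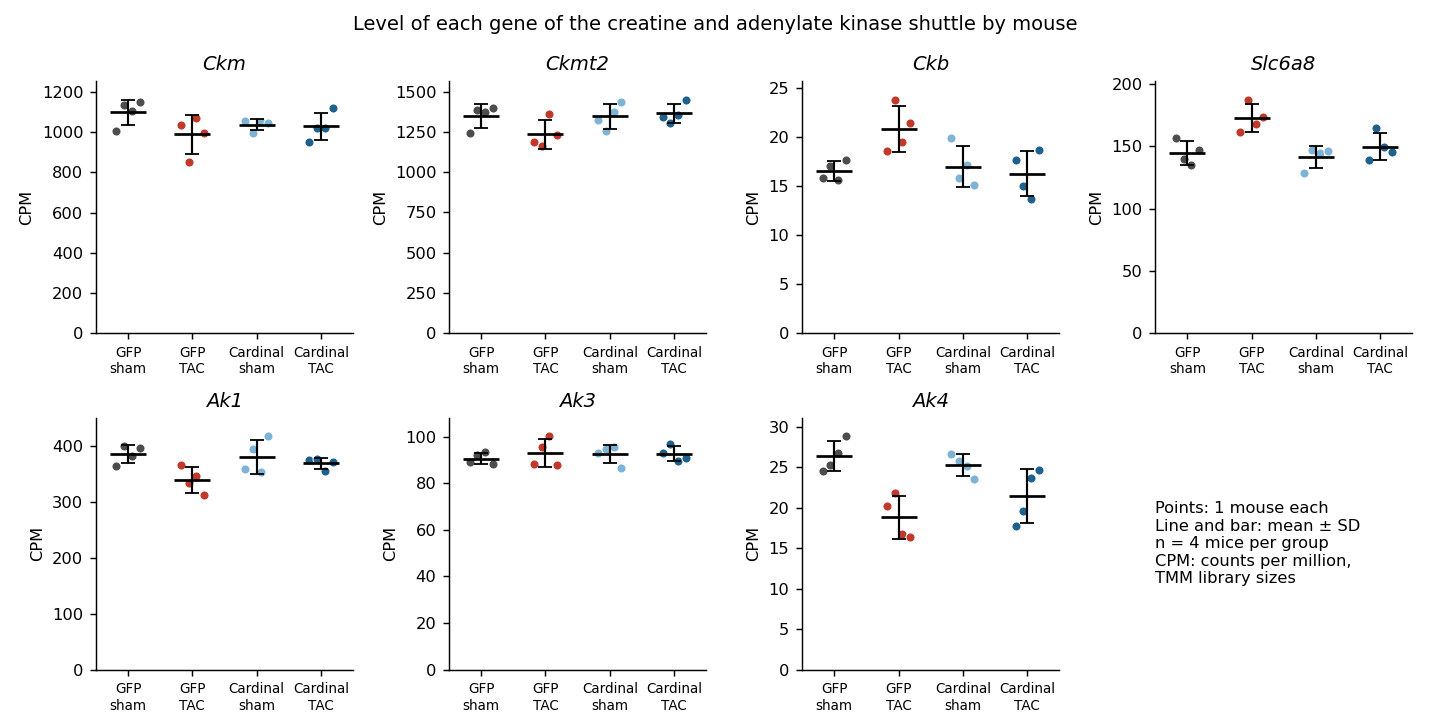
Level of each gene in CPM (linear axes from 0), 1 point per mouse, with the mean as a line and the SD as a bar, n = 4 mice per group. In GFP TAC hearts the points of Ckb (mean 20.8 CPM) and Slc6a8 (173 CPM) lay above those of GFP sham hearts (16.5 and 145 CPM) and the points of Ak4 (18.8 CPM) below them (26.3 CPM), while Ckm, Ckmt2, Ak1 and Ak3 overlapped.

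The balance between the muscle and brain-type cytosolic isoforms was followed within each mouse, where library scaling cancels. Per kb of exon there was 63.2, 66.3, 70.5 and 64.7 times as much Ckm as Ckb RNA in GFP sham mice 1 to 4. In GFP TAC mice 1, 3, 4 and 7 the ratio was 55.7, 35.6, 54.7 and 46.3. Every GFP TAC mouse had a lower ratio than every GFP sham mouse, and mouse 3 the lowest. The log2 ratio was 6.05 ± 0.067 in GFP sham and 5.56 ± 0.30 in GFP TAC (SD, n = 4), or 5.70 without mouse 3. In Cardinal sham mice 1 to 4 the ratio was 52.9, 62.7, 60.9 and 68.8. In Cardinal TAC mice 1, 4, 5 and 6 it was 53.8, 67.8, 74.1 and 59.7. These Cardinal groups overlapped throughout, with log2 ratios of 5.93 ± 0.16 and 5.99 ± 0.20 (SD, n = 4). Mouse 1 of Cardinal sham and mouse 1 of Cardinal TAC lay within the range of the GFP TAC mice. The size of the ratio depended on the length used. Per kb of the principal transcript alone the mean log2 ratio was 5.16 in GFP sham, 4.68 in GFP TAC, 5.04 in Cardinal sham and 5.10 in Cardinal TAC. As a ratio of member genes these values are given without a test.

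Expressed as a share, Ckb made up 0.442% ± 0.022 of the length-scaled creatine kinase RNA (Ckm, Ckmt2 and Ckb) in GFP sham, 0.615% ± 0.107 in GFP TAC, 0.463% ± 0.062 in Cardinal sham and 0.439% ± 0.054 in Cardinal TAC (SD, n = 4). The GFP TAC mice spanned 0.521% to 0.760% and the GFP sham mice 0.411% to 0.461%, with Cardinal sham mouse 1 (0.544%) within the GFP TAC span. The brain-type isoform thus stayed under 1% of the total in every mouse at this exon length; per kb of the principal transcript the group means were 0.851%, 1.18%, 0.891% and 0.844% in the same order of groups. The ratio of mitochondrial to cytosolic muscle isoform, Ckmt2 to Ckm per kb, was 2.41 ± 0.024, 2.45 ± 0.175, 2.55 ± 0.111 and 2.60 ± 0.113 in GFP sham, GFP TAC, Cardinal sham and Cardinal TAC. Between the matrix adenylate kinases, the per-kb ratio of Ak3 to Ak4 was 5.14 ± 0.41 in GFP sham and 7.48 ± 1.19 in GFP TAC, with ranges of 4.55 to 5.42 and 6.50 to 8.92 that did not overlap, and 5.46 ± 0.19 and 6.58 ± 1.19 in Cardinal sham and Cardinal TAC (SD, n = 4).

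**Figure D3:**
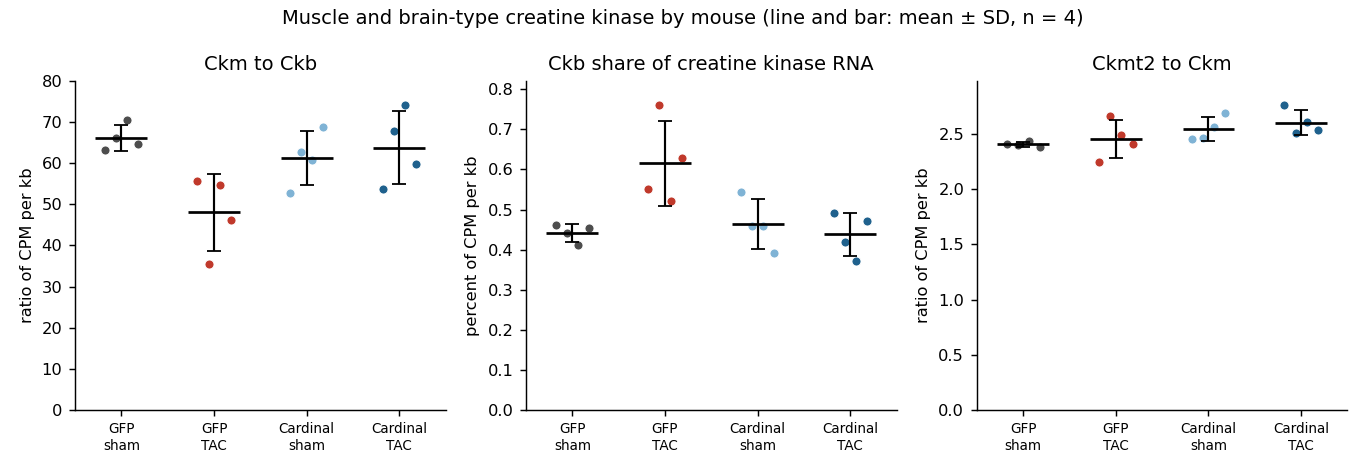
Muscle against brain-type creatine kinase by mouse, 1 point per mouse with mean and SD (n = 4 per group), on axes from 0 and with levels per kb of exon. The Ckm to Ckb ratio of the GFP TAC mice (35.6 to 55.7) lay below that of the GFP sham mice (63.2 to 70.5), and the Cardinal groups overlapped each other. Cardinal sham mouse 1 (52.9) and Cardinal TAC mouse 1 (53.8) lay within the GFP TAC range.

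With the Cardinal virus, 0 of the 7 genes passed the edgeR test between TAC and sham, where 6.48% of all genes did, 3.1% higher and 3.38% lower. DESeq2 called 0 (9.19% of all genes), and 1 gene (Ak4) had an unadjusted p under 0.05 against 21.8% of all genes. Ak4 had 26.7, 25.7, 25.2 and 23.5 CPM in Cardinal sham mice 1 to 4 and 17.7, 19.5, 23.7 and 24.7 CPM in Cardinal TAC mice 1, 4, 5 and 6. Mice 1 and 4 were at the level of the GFP TAC hearts and mice 5 and 6 overlapped the sham hearts. The log2 fold change was -0.24 (SE 0.11, 95% interval -0.47 to -0.0073, edgeR adjusted p = 0.21; exact permutation p = 0.086), and without mouse 1, the mouse with the highest Cardinal RNA, it was -0.16.

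Ckb in the Cardinal hearts had 19.8, 15.8, 17.2 and 15.1 CPM after sham and 17.6, 15.0, 13.7 and 18.6 CPM after TAC. These ranges overlapped, and the log2 fold change was -0.067 with a 95% interval of -0.30 to 0.17. Slc6a8 had 128, 147, 145 and 146 CPM after sham and 139, 165, 150 and 146 CPM after TAC, a log2 fold change of 0.082 with a 95% interval of -0.059 to 0.22. Its ranges overlapped as well, although TAC mice 4 and 5 were above every sham mouse. Ckm (1056, 996, 1051 and 1046 CPM after sham, 953, 1022, 1021 and 1121 CPM after TAC) differed by -0.011 on the log2 scale. Its sham mice lay within the range of its TAC mice. Ckmt2 (1322, 1254, 1376 and 1439 CPM after sham, 1342, 1308, 1358 and 1450.3 CPM after TAC) differed by 0.018. Ak1 had 359, 395, 354 and 418 CPM after sham and 375, 376, 356 and 371 CPM after TAC, a difference of -0.045. Ak3 ranged from 86.7 to 95.6 CPM after sham and from 89.7 to 96.9 CPM after TAC.

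Set directly against each other under TAC, Cardinal and GFP hearts differed in 0 of the 7 genes by the edgeR test, which called 0.101% of all genes. There were 3 genes with an unadjusted p under 0.05 (Ckb, Slc6a8 and Ckmt2) against 15% of all genes, and DESeq2 called 1, Ckb, at a log2 fold change of -0.35 with an adjusted p of 0.0499. DESeq2 called 428 genes in all here, 4.75% of those it gave an adjusted p. In the edgeR fit Ckb differed by -0.36 (SE 0.11, 95% interval -0.59 to -0.13, adjusted p = 0.14; exact permutation p = 0.057), with Cardinal TAC at 16.2 ± 2.29 CPM and GFP TAC at 20.8 ± 2.33 CPM (SD, n = 4). The groups overlapped only in that Cardinal TAC mouse 6 (18.6 CPM) exceeded GFP TAC mouse 1 (18.5 CPM). Slc6a8 differed by -0.20 (SE 0.066, 95% interval -0.34 to -0.063, edgeR adjusted p = 0.17; exact permutation p = 0.057) and Ckmt2 by 0.14 (SE 0.059, 95% interval 0.019 to 0.27, edgeR adjusted p = 0.26; exact permutation p = 0.11). Ak1 was at 0.12, Ak4 at 0.19 (95% interval -0.045 to 0.42), Ckm at 0.057 and Ak3 at -0.0038, none past the threshold. Without Cardinal TAC mouse 1 the number of all genes called rose from 17 to 535, while the number among the 7 genes was again 0 and Ckb was at -0.40 (edgeR adjusted p = 0.082).

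Without pressure overload none of the 7 genes passed between the viruses. In sham hearts the edgeR test called 0 of the 7 genes and 0.0119% of all genes, DESeq2 called 0 of the 7 (0.0237% of all genes), and 0 had an unadjusted p under 0.05 against 2.59% of all genes. The log2 fold changes ran from -0.083 for Ckm to 0.042 for Ckb.

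The difference in TAC response between the viruses, tested as an interaction, passed for 0 of the 7 genes and for 0.0119% of all genes by edgeR. DESeq2 gave no adjusted p to Ckb or Ak4 here and called 0 of the other members, where it called 5.53% of the genes given an adjusted p. Ckb was the 1 gene with an unadjusted edgeR p under 0.05 (10.2% of all genes). Its response was lower with Cardinal by 0.40 on the log2 scale (log2 difference -0.40, SE 0.15, 95% interval -0.73 to -0.073, edgeR adjusted p = 0.39). The exact permutation p was 0.051 over 4900 exchanges of virus within treatment. Those exchanges assume no virus effect in sham or in TAC hearts, which is more than an equal TAC response. The response difference was -0.17 for Slc6a8, 0.25 for Ak4, 0.14 for Ckm, 0.15 for Ckmt2, 0.14 for Ak1 and -0.034 for Ak3. A difference in response between the viruses was therefore not shown for Ckb, Slc6a8, Ak1 or Ak4, which passed with GFP and missed the threshold with Cardinal. Each of these comparisons shares groups with the others, so their values for a gene are not independent of each other.

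**Figure D4:**
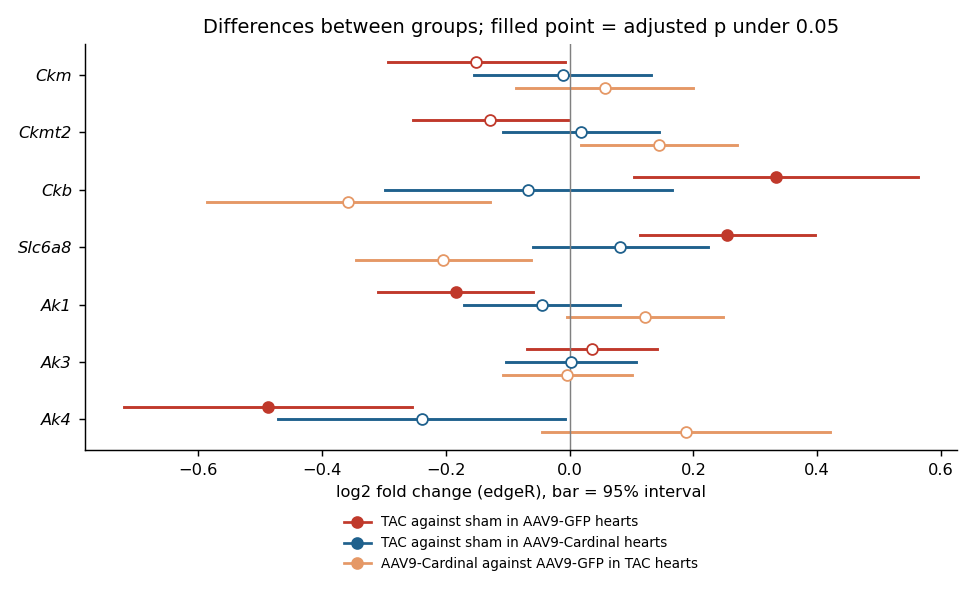
edgeR log2 fold change of each gene for TAC against sham with either virus and for Cardinal against GFP under TAC. Bars give the 95% interval and filled points an adjusted p under 0.05. Filled points appear only for TAC against sham in GFP hearts, at 0.33 for Ckb, 0.25 for Slc6a8, -0.18 for Ak1 (-0.024 and not called with library totals alone) and -0.49 for Ak4; Ckm and Ckmt2 lay below 0 there with TMM scaling and just above 0 with library totals alone.

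The wider pathway was counted from 7 lists of 52 genes that hold the 7 genes above, creatine synthesis, nucleoside diphosphate kinases, AMP breakdown, mitochondrial exchange of ATP and ADP, and AMP-activated protein kinase (AMPK) subunits. Of these, 45 were tested. Ak5, Ak7 and Nt5c1b had 0 counts in every library, Ak8 and Ampd1 at most 1 and Ak9 at most 7. With GFP, 8 of the 45 rose under TAC, 5 fell and 32 did not pass (edgeR; DESeq2 called 12 and 22 had an unadjusted p under 0.05), with a median log2 fold change of -0.050. Over all genes 17.4% passed and 29.9% had an unadjusted p under 0.05, and DESeq2 called 17.2% of those it gave an adjusted p. With Cardinal, 3 rose, 4 fell and 38 did not pass (edgeR), beside 6.48% of all genes that passed. DESeq2 called 7 (9.19% of the genes it gave an adjusted p), and 12 had an unadjusted p under 0.05 (21.8% of all genes).

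Beside Slc6a8, the creatine supply list held Gamt, the methyltransferase that completes creatine synthesis, which rose from 1.89 to 2.74 CPM in GFP hearts (log2 fold change 0.54, edgeR adjusted p = 0.026). Gamt lost the call without GFP sham mouse 1 or 2 or GFP TAC mouse 1 or 3 (edgeR adjusted p up to 0.0828). Gatm, the enzyme of the preceding step, did not pass with GFP and fell from 1.84 to 0.972 CPM with Cardinal (-0.93, edgeR adjusted p = 0.041). The Gatm call was lost in 6 of 16 fits without 1 mouse (edgeR adjusted p up to 0.13), those without Cardinal sham mouse 1 or 2, Cardinal TAC mouse 4, 5 or 6, or GFP sham mouse 3. Of the 7 adenylate kinase family genes tested, Ak1 and Ak4 fell with GFP and the other 5 did not pass.

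The genes that hand ATP and ADP across the mitochondrial membranes, beside which Ckmt2 works, moved in both directions with GFP. The outer-membrane channels Vdac1 (526 to 428 CPM, -0.30, edgeR adjusted p = 0.00054) and Vdac3 (126 to 102 CPM, -0.31, edgeR adjusted p = 4.6e-05) fell. The adenine nucleotide translocator Slc25a5 rose with either virus, by 0.26 with GFP and 0.29 with Cardinal (edgeR adjusted p = 0.0055 and 0.0097), while the heart isoform Slc25a4 (2888 against 2623 CPM with GFP) did not pass. The GFP calls of Vdac1, Vdac3 and Slc25a5 and the Cardinal call of Slc25a5 were kept in all 16 fits without 1 mouse.

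Among the other lists Nt5c2, a cytosolic nucleotidase, rose by 0.29 with GFP and 0.38 with Cardinal and kept both calls in all 16 fits. With GFP, Nme1, a nucleoside diphosphate kinase, rose by 0.44 and Adss, of AMP synthesis, by 0.38. Both lost the call without GFP sham mouse 2 and Nme1 also without GFP TAC mouse 3 (edgeR adjusted p up to 0.0561 and 0.0518). Of the AMPK subunits, Prkag1 fell with either virus (-0.27 and -0.18) and Prkag3 rose with either virus (0.54 and 0.57). Their GFP calls were kept in all 16 fits, and their Cardinal calls were lost without Cardinal sham mouse 2 or 4 or Cardinal TAC mouse 4, 5 or 6 (edgeR adjusted p up to 0.101 and 0.0834). With library totals alone neither call of Prkag1 passed (-0.11 and -0.14, edgeR adjusted p = 0.0872 and 0.0912), nor did that of Gatm (-0.90, 0.0584). Nme5 (-0.77) and the AMPK subunit Prkab1 (-0.73) fell with Cardinal and did not pass with GFP. Each call was lost without Cardinal sham mouse 2 or Cardinal TAC mouse 6, that of Nme5 also without Cardinal sham mouse 1 and that of Prkab1 without Cardinal TAC mouse 5 (edgeR adjusted p up to 0.0742 and 0.0704).

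The difference in response between viruses passed for 0 of the 45 genes (edgeR, 0.0119% of all genes). DESeq2 called 2 (5.53% of the genes it gave an adjusted p), and 8 had an unadjusted p under 0.05 (10.2% of all genes). Between viruses under TAC 1 of the 45 genes passed, beside 0.101% of all genes. It was Vdac3, which was higher with Cardinal by 0.21 (edgeR adjusted p = 0.043). DESeq2 called 3 (4.75% of the genes it gave an adjusted p), and 12 had an unadjusted p under 0.05 (15% of all genes). The edgeR call of Vdac3 was kept in only 4 of 16 fits, those without Cardinal TAC mouse 1, GFP sham mouse 4, or GFP TAC mouse 1 or 4. Its edgeR adjusted p reached 0.176 in the other 12. With library totals alone Vdac3 was at 0.12 (edgeR adjusted p = 0.104). With the mouse number as a block 0 genes passed in this comparison, but Cardinal TAC mice 5 and 6 and GFP TAC mouse 7 had no weight there. In sham hearts 0 of the 45 passed (edgeR, 0.0119% of all genes) and DESeq2 called 0 (0.0237%). An unadjusted p under 0.05 was found for 2 (2.59% of all genes).

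**Figure D5:**
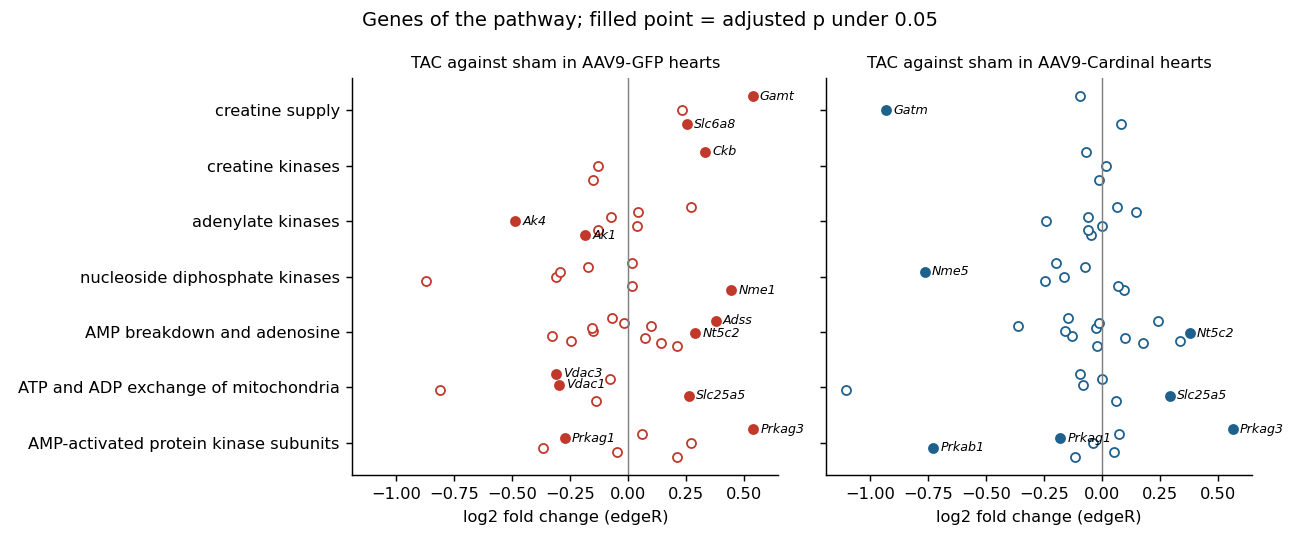
edgeR log2 fold change (TMM scaling) under TAC for the 45 pathway genes tested, by list, in GFP hearts (left) and Cardinal hearts (right), with filled points for an adjusted p under 0.05. In GFP hearts 8 genes rose and 5 fell, the muscle isoforms Ckm and Ckmt2 (open points near -0.15 and -0.13) not among them; in Cardinal hearts 3 rose and 4 fell.

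The genes whose log2 CPM followed each member most closely over the 16 mice, among 7559 genes averaging 10 CPM or more, were listed as a description; the points share group differences and library composition. Ckm was followed by Map1lc3a (Pearson r = 0.87), Cyc1, the cytochrome c1 of complex III (0.84), and Gpatch8 (0.83), and with group means removed these were 0.84, 0.86 and 0.83. Ckmt2 was followed by Tufm, the mitochondrial elongation factor (0.88), Srsf7 (0.87) and Gm9755 (0.86). Ckb was followed by the proteasome subunit Psmd8 (0.91), Osbpl5 (0.87) and Ciao2b (0.87), with 0.83, 0.78 and 0.87 after the group means were removed. No gene was listed for more than a single member, so the lists of Ckm and Ckmt2 held none in common either.

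Slc6a8 was followed by Smpd1 (r = 0.86), Golga4 (0.85) and Dexi (0.84), the last of which dropped to 0.50 with group means removed. Ak1 was followed by Tomm40l (0.90), Cap2 (0.89) and Tnnt1, a slow skeletal troponin T (0.89), all at 0.78 to 0.79 within groups. Ak3, the gene that varied least between groups, had the lowest top values, with Tmem147 at 0.76 and Smad2 and Isca2 at 0.73. Ak4 was followed by Plbd1, Khdrbs3 and Reep5, each at 0.86 over all mice and at 0.54, 0.57 and 0.49 with group means removed, so that for Ak4 much of the likeness lay in the difference between groups.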

How the data were processed

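Poly(A) RNA from the heart apex was sequenced as single-end reads of 50 bases. Per the labels and the submitters' processing notes, which name FastQC, HISAT2 2.1.0, edgeR 3.26.1 and GRCm38, the authors deposited a matrix of raw counts per Ensembl gene; the counting program, annotation, strand use and treatment of multi-mapping reads were not given in the sources used here. Reads shared with pseudogenes or antisense genes can therefore be divided in ways that the counts do not show.

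From these counts, CPM were computed with TMM library sizes, and log2 CPM with a prior count of 2. Differences were tested with the edgeR 4.0.16 quasi-likelihood test (R 4.3.3, limma 3.58.1) over 16857 genes left by filterByExpr, in 1 fit of all 16 mice with 5 contrasts and Benjamini-Hochberg adjustment over all genes tested. Exact two-sided permutation tests used log2 CPM (70 labelings of 4 mice against 4, smallest p 0.029). No p-value is given for ratios of genes. Names came from GENCODE M21 (55480 of 55573 identifiers matched), and length-scaled levels used the union of exons. The text names all 7 members, pathway genes past the threshold or not tested, and the 3 genes most like each member. The members and lists were chosen with earlier results of these data known. Alternatives were DESeq2 1.42.0, other scalings, other filters, mitochondrial genes left out, the mouse number as a block, the compared mice alone and each mouse left out. Depth was 16441997 to 21904589 counts per mouse; replicates differed by more than sampling noise in every pair (chi-square per degree of freedom 5.49 to 16.4).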

Additional observations from a re-analysis of the deposited data

Results flagged for a closer look

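In each set of 4 mice the most extreme mouse was compared with the others by Dixon's ratio, for 12 quantities and 48 sets in all. Chance marks about 1 set in 20, and 5 were marked. Ckm in Cardinal sham mouse 2 was 996 CPM, against 1046 to 1056 CPM in the other mice of its group. Ckmt2 in GFP sham mouse 1 was 1240.3 CPM, against 1374 to 1396 CPM. Slc6a8 in Cardinal sham mouse 1 was 128 CPM, against 145 to 147 CPM. Gm12295 (Cardinal) in Cardinal TAC mouse 1 was 93.9 CPM, against 18.3 to 20.6 CPM. The total of Cardinal sham mouse 4 was 16441997 counts, against 21603910 to 21786630 counts in the other mice.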

How the results depend on the processing

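Over 868 refitted values of 35 gene results, 795 kept direction and side of the threshold, 27 lost a call and 3 gained a call. Another 43 changed sign, in 15 results, and the cause was not tested. A missing DESeq2 adjusted p, that of Ckb and Ak4 for the response difference, was counted as not called. Ak4 in GFP TAC kept its call in all. Library totals alone, principal transcript lengths and the refits of pathway genes were chosen after seeing the data. Depth limits Ckb and Ak4 most, and intervals cover this experiment's mice only.

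Counts of genes called were 2934 (TAC with GFP), 1092 (TAC with Cardinal), 17 (Cardinal against GFP under TAC), 2 (sham) and 2 (response difference). With DESeq2, 428, 4 and 137 genes were called in the last 3, and 1 member (Ckb) under TAC. Library totals alone gave 4901 (TAC with GFP, 4220 higher and 681 lower, against 1431 and 1503) and 76 (under TAC). Under TAC, no filter gave 3, the stricter filter 35, leaving out mitochondrial genes 30 and the 8 mice alone 3; no filter gave 615 for TAC with Cardinal. Leaving out 1 mouse gave 1962 to 3072, 384 to 1436, 0 to 535, 1 to 3 and 2 to 79, the highest without Cardinal TAC mouse 1, and 1 to 4 members in GFP TAC and 0 in the other comparisons.

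Library totals alone turned log2 fold changes to 0.0081 (Ckm) and 0.031 (Ckmt2) for TAC with GFP, 0.024 (Ckm) for TAC with Cardinal, -0.034 (Ckm) under TAC, and 0.030 (Ckmt2) and 0.014 (Ak1) in sham. No filter turned Ak3 under TAC to 0.0027, and the stricter filter Ckmt2 in sham to 0.00038. Leaving out 1 mouse gave, in sham, -0.064 to 0.017 (Ak1), -0.042 to 0.092 (Ckb), -0.040 to 0.031 (Ckmt2) and -0.063 to 0.013 (Slc6a8). For TAC with Cardinal it gave -0.080 to 0.0011 (Ak1), -0.027 to 0.019 (Ak3), -0.14 to 0.018 (Ckb), -0.052 to 0.027 (Ckm) and -0.015 to 0.051 (Ckmt2). Under TAC it gave -0.028 to 0.037 (Ak3) and -0.0057 to 0.10 (Ckm), and for the response difference -0.063 to 0.0040 (Ak3).

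Mice with the same number deviated together in 4 of 16 pairs (r over 0.1), all of them between mice numbered 1. Over the 16 pairs r ranged from -0.040 to 0.21 with a median of 0.054. For 80 other pairs r ranged from -0.19 to 0.22 with a median of -0.013. Whether the numbers pair the mice was not tested. Numbers 5 and 6 occurred only in Cardinal TAC and number 7 only in GFP TAC. The block absorbs such mice, so its results rest on the remaining mice of these groups and are not a check over all 16 mice. With the mouse number as a block, 1 member (Ak4) was called for TAC with GFP, where Ckb had an edgeR adjusted p of 0.14, Slc6a8 0.087 and Ak1 0.21, and 31, 0, 1 and 1 genes in the other comparisons. The block turned Ckmt2 to -0.039 for TAC with Cardinal, and Ckm to -0.025, Ak3 to 0.029 and Ak4 to -0.039 under TAC.

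Per kb of principal transcript the log2 ratio of Ckm to Ckb was 5.16, 4.68, 5.04 and 5.10 in GFP sham, GFP TAC, Cardinal sham and Cardinal TAC, and the Ckb share 0.851%, 1.18%, 0.891% and 0.844%. From raw counts the share was 0.671%, 0.935%, 0.708% and 0.673%. Without 1 mouse the log2 ratio was 6.02 to 6.07, 5.49 to 5.70, 5.87 to 6.00 and 5.91 to 6.07, and the share 0.436% to 0.453%, 0.567% to 0.646%, 0.436% to 0.487% and 0.421% to 0.461%.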
